A study of Mus musculus with 24 samples.

Results

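The comparison set bone of transgenic female mice at 6 months against bone of transgenic female mice at 3 months, chosen by the genotype and age in the sample titles. It holds 6 of the 24 arrays of the series, 3 at each age. Total RNA came from tibiae and femur, and the tibia was flushed of marrow beforehand, per the labels. All 6 arrays carry the HSD2OB-tg genotype, a transgene for 11-beta hydroxysteroid dehydrogenase type 2 directed to osteoblasts. Wild-type females of the same ages, 3 arrays each, stand beside them, and 3 arrays of each genotype at 12 and at 18 months complete the series. The series' design text describes the arrays as biological triplicates, although no label names the animal behind an array. The p-values therefore rest on the spread among these arrays, part of which may be technical. As background, the enzyme inactivates glucocorticoids, and the line known by this name expresses it under a fragment of the Col1a1 promoter, which is active in osteoblasts and osteocytes.

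In a growing mouse the long bones lengthen at the growth plate, where chondrocytes divide, lay down a cartilage of type II collagen and aggrecan, enlarge, and switch on type X collagen. Osteoblasts replace that cartilage and cover the outer surface with a matrix of type I collagen, which needs hydroxylases, a chaperone and crosslinking enzymes before it can mineralize. Both activities slow as the skeleton matures, while osteoclasts go on resorbing bone and osteocytes, buried osteoblasts, remain in the matrix.

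Values are log2 signals of 22180 genes on Affymetrix Mouse Gene 2.1 ST arrays, and a difference of 1 is a doubling of signal. The 6 arrays correlated with each other at 0.965 to 0.987 over all genes. Skeletal muscle RNA varied among them: the mean of 34 contractile and metabolic muscle genes was 5.39, 7.55 and 8.31 at 3 months and 8.71, 10.13 and 8.88 at 6 months. Each age holds 2 arrays of the commonest prefix of the sample code and 1 array of another prefix (replicate 3), so the prefix, whose meaning the labels do not give, is balanced between the ages. Osteoblast, osteocyte, osteoclast and cartilage markers were measured at both ages, as described under each group.

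The step from 3 to 6 months was mostly a loss of signal. A linear model with moderated variances (limma) called 590 genes lower and 57 higher at 6 months at an adjusted p under 0.05, which is 2.66% and 0.257% of the 22180 genes tested, while 3517 genes had an unadjusted p under 0.05. Each gene's spread in this model came from all 24 arrays. With only the 6 transgenic arrays the model called 85 genes with a term for the prefix and 31 without it. Of the 647 genes called with all arrays, 91.2% fell, whereas 48.3% of all genes lay below 0 and the median over all genes was 0.009. The median difference was -1.18 among the called falls and 1.15 among the called rises, and 62 falls but 7 rises exceeded 2 on the log2 scale. Every 6-month array lay below every 3-month array for 562 of the 590 falls, against 9.63% of all genes. Every 6-month array lay above every 3-month array for 49 of the 57 rises, against 7.19% of all genes. These shares describe the calls and do not support them, because the calls were made on the same 6 arrays.

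The median level of the 590 falling genes was 6.50, 6.89 and 6.84 on the 3-month arrays and 4.99, 5.46 and 5.86 on the 6-month arrays. Replicate 1 of 6 months held the lowest of the 6 values for 436 of these genes, and replicate 3 held it for 29. The count of calls leaned on single arrays: it was 102 without 3-month replicate 2, 139 without 6-month replicate 1 and 411 without 3-month replicate 3, and between 456 and 593 without any other. Of the genes that fell, 80 were called in all 6 of these fits, and of the genes that rose, 3. All 590 falls and 57 rises had the same sign between the 4 arrays of the commonest prefix, and 590 and 54 had it between the 2 arrays of the other prefix. The genes were called on these same 6 arrays, so agreement of sign was largely fixed in advance and is only a description.

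**Figure D1:**
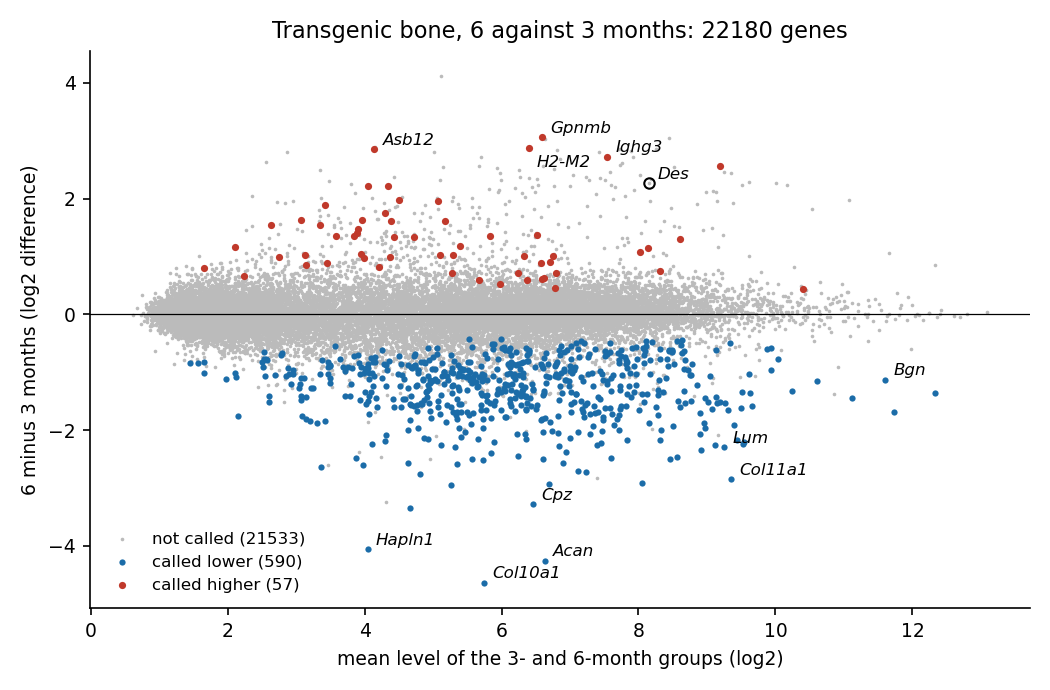
Difference between 6 and 3 months (log2, vertical axis) against the mean level of the 3- and 6-month groups (log2, horizontal axis) for 22180 genes in transgenic bone, 3 arrays per age. Blue points are the 590 genes called lower, red points the 57 called higher and grey points the rest. The labelled falls reach -4.64 for Col10a1, and Des, a muscle gene circled in black, lies among uncalled genes at 2.27.

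Genes of osteoblasts fell almost as a whole. Of 16 measured osteoblast markers, 14 were called lower and none higher, against 2.66% of all genes, and their median difference was -1.67. The mean of the list was 9.15, 9.69 and 9.48 at 3 months and 6.99, 7.68 and 8.42 at 6 months, so the ages did not overlap. In RNA of whole bone, fewer osteoblasts and less of each transcript per osteoblast cannot be told apart. The 2 markers that were not called were Bglap and Cadm1, a cell adhesion gene named after its values were seen, at -0.45 (limma adjusted p = 0.361).

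Smpd3, a sphingomyelinase of the cell membrane needed for mineralization, measured 9.56, 9.91 and 9.67 at 3 months and 6.40, 7.31 and 7.93 at 6 months. It fell by 2.50 ± 0.53 (SE, limma adjusted p = 0.0137), a 5.64-fold lower signal, with no overlap between the ages. Cthrc1, a secreted glycoprotein of matrix-forming cells, measured 6.41, 7.45 and 6.58 at 3 months and 4.04, 4.22 and 4.69 at 6 months. Its fall of 2.49 ± 0.35 (SE, adjusted p = 0.00157) was called in all 6 fits that left out 1 transgenic array. Omd, the osteoadherin gene of mineralized matrix, stood at 7.98, 8.15 and 8.26 at 3 months and at 4.56, 6.02 and 6.68 at 6 months, and fell by 2.38 ± 0.45 (SE, adjusted p = 0.00827). All 3 arrays of 6 months were below all 3 of 3 months for each of these genes.

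Mmp13, a collagenase of osteoblasts and hypertrophic chondrocytes, measured 10.50, 11.12 and 10.29 at 3 months and 7.47, 8.42 and 9.41 at 6 months. It fell by 2.20 ± 0.47 (SE, limma adjusted p = 0.0139), 4.61-fold lower, with 6-month replicate 1 the lowest array. Bglap, the osteocalcin gene, measured 6.52, 7.82 and 6.73 at 3 months and 5.14, 5.21 and 5.38 at 6 months, a difference of -1.78 ± 0.51 (SE) that did not pass (adjusted p = 0.0724) although the ages were separate. Col1a1, whose promoter drives the transgene and which was named after its values were seen, measured 12.98, 13.15 and 12.91 at 3 months and 10.95, 11.86 and 12.17 at 6 months, a fall of 1.35 ± 0.35 (SE, adjusted p = 0.0407). The number of osteoblast markers called was 1 without 3-month replicate 2, 1 without 6-month replicate 1, 8 without 6-month replicate 2 and 9 without 3-month replicate 3.

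**Figure D2:**
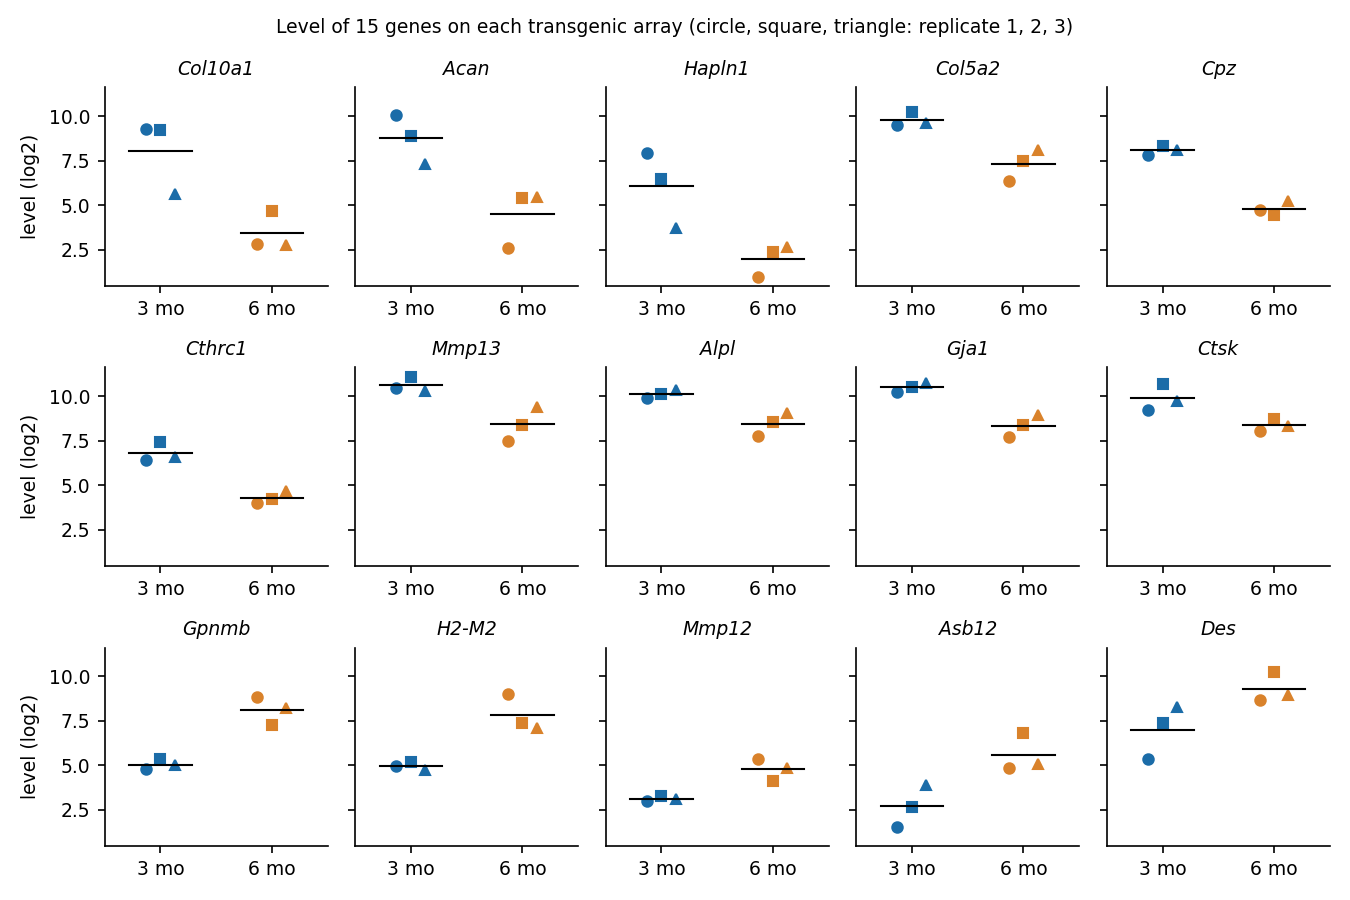
Level (log2) of named genes on each transgenic array at 3 months (blue) and 6 months (orange), with the mean of 3 arrays as a black bar and symbols for replicates 1, 2 and 3. Cartilage, collagen, osteoblast, osteocyte and osteoclast genes fill the upper rows and lie lower at 6 months. Gpnmb, H2-M2, Mmp12 and Asb12 lie higher at 6 months, and Des is shown for muscle RNA.

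Collagens and the enzymes that build them fell together. All 11 fibrillar collagen genes lay below 0 with no overlap between the ages, 9 of them were called, and the median was -2.09. Col11a1, a minor fibril collagen that sets fibril width, measured 10.60, 11.09 and 10.63 at 3 months and 6.93, 8.14 and 8.70 at 6 months, a fall of 2.85 ± 0.63 (SE, limma adjusted p = 0.0188). Col5a2, which starts type I fibrils, measured 9.52, 10.25 and 9.61 against 6.36, 7.49 and 8.13, and fell by 2.47 ± 0.55 (SE, adjusted p = 0.0192). Col11a2 fell by 2.49 and Col2a1, the main cartilage collagen, by 2.35 (adjusted p = 0.006 and 0.037). The 2 fibrillar genes not called, named after their values were seen, were Col3a1 at -2.09 (adjusted p = 0.0678) and Col5a3 at -0.90 (adjusted p = 0.123). None of the list was called without 3-month replicate 2 or without 6-month replicate 1, and 5 were called without 3-month replicate 1.

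Among 26 other collagens, 10 were called lower and the median was -0.47. Col12a1, a fibril-associated collagen, fell by 2.23, Col8a1, a network collagen, by 2.18, Col15a1, a basement membrane zone collagen, by 2.04 and Col6a2, a microfibril collagen, by 1.89 (limma adjusted p = 0.0325, 0.0129, 0.00324 and 0.00673). The fall of Col15a1 from 6.24, 6.62 and 6.60 to 3.96, 4.56 and 4.82 was called in all 6 fits without 1 array. Of the 26, 2 were called without 3-month replicate 2 and 2 without 6-month replicate 1.

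Of 30 genes for collagen processing and crosslinking, 21 were called lower, with a median of -1.33, and 26 had every 6-month array below every 3-month array. Lox, the lysyl oxidase that starts crosslinks, measured 9.91, 10.51 and 10.33 at 3 months and 7.43, 8.04 and 8.49 at 6 months, a fall of 2.26 ± 0.48 (SE, limma adjusted p = 0.0146). Creb3l1, a transcription factor that raises collagen secretion in osteoblasts, fell by 2.23 ± 0.46 (adjusted p = 0.0122), and Bmp1, which trims the procollagen C-propeptide, by 2.01 ± 0.40 (adjusted p = 0.0104). Kdelr3, a receptor that returns chaperones to the endoplasmic reticulum, fell by 2.07 ± 0.38 (adjusted p = 0.00741). In the wider secretory list of 25 genes, 5 were called lower with a median of -0.34, among them Sec24d, a coat protein of vesicles leaving the endoplasmic reticulum, at -1.38, and Kdelr2 at -0.97 (adjusted p = 0.00427 and 0.0105). The processing list held 3 called genes without 3-month replicate 2 and 4 without 6-month replicate 1, and the secretory list held 1 in each case.

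Proteins that attach to or cut the matrix fell in part. Of 30 matrix glycoprotein genes, 9 were called lower (median -0.75). Tnn, which encodes tenascin-W, measured 7.14, 9.08 and 8.35 at 3 months and 4.09, 5.57 and 7.16 at 6 months, and its highest 6-month array lay just above its lowest 3-month array despite a fall of 2.58 (limma adjusted p = 0.0228). Fbn2, a fibrillin of growing tissue, measured 6.22, 6.50 and 6.68 at 3 months and 3.78, 3.94 and 4.82 at 6 months, and fell by 2.29 ± 0.29 (SE, adjusted p = 0.000817), a call kept in all 6 fits without 1 array. Thbs3, a thrombospondin, fell by 1.70 and Postn, the periostin gene of periosteum, by 1.58 (adjusted p = 0.0364 and 0.0347). Of these 9 calls, 1 was made without 3-month replicate 2, 2 without 6-month replicate 1 and 5 without 6-month replicate 2.

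Among 15 small leucine-rich proteoglycans, 3 were called lower (median -1.13), namely Omd, Lum at -2.29 and Bgn at -1.13 (limma adjusted p = 0.00827, 0.0249 and 0.0377). Lum, which spaces collagen fibrils, measured 10.02, 10.91 and 10.24 at 3 months and 7.01, 8.42 and 8.86 at 6 months. In the list of 24 matrix proteases and inhibitors, 9 were called lower and 1 higher, with a median of -0.55. Besides Mmp13 they included Timp1, an inhibitor of metalloproteinases, at -2.16 (adjusted p = 0.0114), the gelatinase gene Mmp2 at -1.91 (adjusted p = 0.0363) and the membrane-bound Mmp16 at -1.79 (adjusted p = 0.0129). Mmp12, a macrophage elastase, was the member that rose. Neither of these lists held a called gene without 3-month replicate 2 or without 6-month replicate 1, and the protease list held 3 without 3-month replicate 3.

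Growth plate cartilage gave the largest single falls, with a wide spread at 3 months. Of 32 chondrocyte genes 31 lay below 0, 13 were called lower and the median was -1.56. Col10a1, the collagen of hypertrophic chondrocytes, measured 9.32, 9.22 and 5.66 at 3 months and 2.84, 4.67 and 2.79 at 6 months, a fall of 4.64 ± 0.87 (SE, limma adjusted p = 0.00795). Acan, the aggrecan gene, measured 10.07, 8.90 and 7.32 against 2.60, 5.42 and 5.50, and fell by 4.26 ± 1.00 (SE, adjusted p = 0.0247). Hapln1, which links aggrecan to hyaluronan, measured 7.96, 6.51 and 3.75 against 1.00, 2.40 and 2.65, and fell by 4.06 ± 0.98 (SE, adjusted p = 0.0292). In each of these the 3-month replicate 3 was the lowest array of its age yet above every 6-month array. Of the 6-month values, 2 of Col10a1, 1 of Acan and all 3 of Hapln1 lay below the array medians of 3.55 to 3.64. Without a detection call these are not shown to be above background, so no fold is given and the size of these falls is uncertain.

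Col9a1 and Col9a3, chains of the collagen that coats type II fibrils, fell by 3.35 and 2.60, and Mia, a secreted cartilage protein, by 2.65 (limma adjusted p = 0.0215, 0.0459 and 0.0465). Mia measured 6.57, 5.05 and 2.45 at 3 months and 1.85, 1.94 and 2.35 at 6 months, so replicate 3 of 3 months stood just above the highest 6-month array. That value and every 6-month value of Mia lay below the array medians of 3.55 to 3.64 and are not shown to be above background. The list mean per array was 7.52, 6.60 and 5.25 at 3 months and 3.85, 5.01 and 4.84 at 6 months. Between the 2 arrays of the rarer prefix, which are replicate 3 of each age, the list median differed by -0.15, and over fits without 1 array it ran from -2.37 to -1.31. Calls in this list numbered 1 without 3-month replicate 2, 1 without 6-month replicate 1, 5 without 3-month replicate 1, 5 without 6-month replicate 2 and 19 without 3-month replicate 3.

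**Figure D3:**
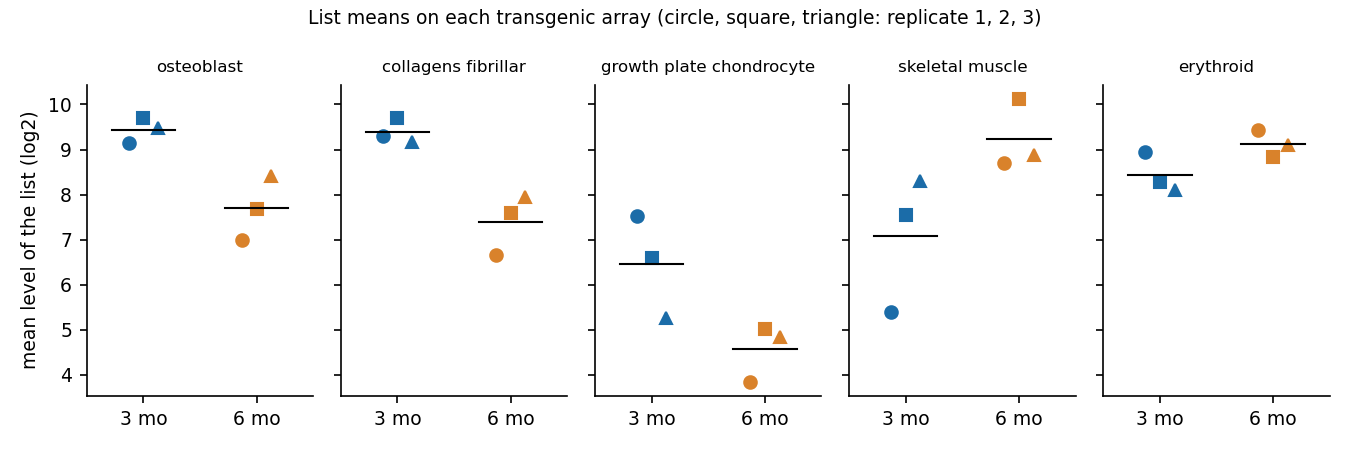
Mean level (log2) of 5 gene lists on each transgenic array at 3 months (blue) and 6 months (orange), with the mean of 3 arrays as a bar and symbols for replicates 1, 2 and 3. The osteoblast, fibrillar collagen and cartilage lists lie lower on every 6-month array, the cartilage list with 5.25 against 5.01 at the narrowest gap. The muscle list lies higher on every 6-month array, and the erythroid list overlaps.

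Promoter windows of 250 bases before to 50 after a transcript start, from RefSeq (GRCm38.p6), are shown for the gene with the largest fall, for the osteoblast genes named above that the table holds, and for the gene with the largest rise. Capitals mark matches, on either strand, to TGTGGT (reverse complement ACCACA), the core letters bound by RUNX factors, which direct osteoblast and hypertrophic chondrocyte genes; the palindrome CAGCTG, an E-box read by muscle regulatory factors, was searched too and is absent from these windows. Each gene has 1 start in the table, and each window lies on the plus strand, at chr10:34389731-34390030 for Col10a1, chr9:7272264-7272563 for Mmp13, chr13:49582212-49582511 for Omd and chr6:49036268-49036567 for Gpnmb.
Col10a1: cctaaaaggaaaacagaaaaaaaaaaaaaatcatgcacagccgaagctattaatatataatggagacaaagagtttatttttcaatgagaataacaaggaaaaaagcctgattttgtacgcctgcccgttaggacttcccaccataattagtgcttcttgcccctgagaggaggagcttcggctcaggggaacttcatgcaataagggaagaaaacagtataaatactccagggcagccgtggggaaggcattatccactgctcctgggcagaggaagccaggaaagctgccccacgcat
Mmp13: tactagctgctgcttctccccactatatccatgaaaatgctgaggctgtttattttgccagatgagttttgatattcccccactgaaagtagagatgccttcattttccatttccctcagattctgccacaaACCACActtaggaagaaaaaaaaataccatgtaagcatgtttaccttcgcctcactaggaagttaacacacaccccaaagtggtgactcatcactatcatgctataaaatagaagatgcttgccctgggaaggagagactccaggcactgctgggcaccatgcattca
Omd: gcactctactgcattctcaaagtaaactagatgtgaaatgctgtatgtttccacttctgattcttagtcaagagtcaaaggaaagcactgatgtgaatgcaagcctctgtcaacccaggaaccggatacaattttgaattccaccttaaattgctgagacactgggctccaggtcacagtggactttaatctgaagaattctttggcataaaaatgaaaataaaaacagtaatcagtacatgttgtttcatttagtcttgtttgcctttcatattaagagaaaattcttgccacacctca
Gpnmb: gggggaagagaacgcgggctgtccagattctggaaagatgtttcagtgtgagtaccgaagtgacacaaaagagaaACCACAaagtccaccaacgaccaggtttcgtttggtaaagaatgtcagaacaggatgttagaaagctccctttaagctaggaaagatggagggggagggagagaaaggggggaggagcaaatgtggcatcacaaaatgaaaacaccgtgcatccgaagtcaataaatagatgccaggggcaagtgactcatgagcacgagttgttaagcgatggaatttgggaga

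The TGTGGT letters stood in 14.6% of the windows of 16990 tested genes with a promoter in the table. They stood in 9.79% of those of 439 genes that fell and in 15.2% of those of 46 genes that rose. Among the gene lists they stood in 2 of 9 osteoblast windows (22.2%), 5 of 24 growth plate windows (20.8%) and 4 of 21 collagen processing windows. They stood in 5 of 26 muscle windows (19.2%) and 0 of 8 fibrillar collagen windows. The falls as a whole lay below the share of all genes. Each list holds few windows, and the muscle list, whose genes lay above 0, exceeded that share too, so no pattern is read from the lists. Mmp13 and Gpnmb, which moved in opposite directions, each hold 1 match, and Col10a1 and Omd hold none. The CAGCTG letters stood in 15.8% of all windows, 14.8% of those of the falls and 19.6% of those of the rises, and in 14 of 26 muscle windows (53.8%). In the osteoblast, growth plate, collagen processing and fibrillar collagen lists they stood in 2 of 9, 6 of 24, 4 of 21 and 3 of 8 windows. These matches describe the letters of a short window and do not show a bound site.

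Osteocyte and mineralization genes fell less uniformly. Of 17 osteocyte markers, 4 were called lower and 15 lay below 0, with a median of -0.65. Slc13a5, a citrate transporter of mineralizing cells, measured 9.08, 9.62 and 9.83 at 3 months and 5.24, 6.64 and 7.90 at 6 months, and fell by 2.92 ± 0.63 (SE, limma adjusted p = 0.015). Gja1, the gap junction connexin that joins osteocytes, measured 10.25, 10.55 and 10.78 against 7.71, 8.38 and 8.98, and fell by 2.17 ± 0.36 (SE, adjusted p = 0.00417), a call kept in all 6 fits without 1 array. Adgrd1, an adhesion receptor, fell by 1.78 and Pdpn, the podoplanin gene of young osteocytes, by 1.41 (adjusted p = 0.00834 and 0.0217). Sost, the Wnt inhibitor of mature osteocytes and named after its values were seen, went the other way without passing, at 0.51 ± 0.32 (SE, adjusted p = 0.50), with 6.69, 7.20 and 8.60 at 3 months and 7.37, 7.60 and 9.04 at 6 months.

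Of 12 mineralization and phosphate genes, 5 were called lower (median -1.29) and 10 lay below 0. The largest difference went the other way without passing: Ahsg, the fetuin-A gene of the liver, measured 3.14, 2.42 and 2.56 at 3 months and 6.80, 7.77 and 2.24 at 6 months, at 2.90 ± 0.87 (SE, limma adjusted p = 0.0896), high on 2 of the 3 arrays. The 3-month values of Ahsg and its 6-month value of 2.24 lay below the array medians of 3.55 to 3.64 and are not shown to be above background. Slc20a1, a phosphate transporter, lay higher on every 6-month array, at 0.53 (adjusted p = 0.137); both were named after their values were seen. Alpl, the tissue-nonspecific alkaline phosphatase that removes a mineralization inhibitor, measured 9.90, 10.15 and 10.34 at 3 months and 7.80, 8.55 and 9.07 at 6 months, a fall of 1.65 ± 0.36 (SE, limma adjusted p = 0.0151), and a dimmer row of it differed by -1.15. Slc20a2, a related transporter, measured 8.85, 9.50 and 9.87 against 7.72, 7.99 and 7.72, and fell by 1.59 ± 0.22 (SE, adjusted p = 0.00139) in every fit without 1 array. Both lists held 1 called gene without 3-month replicate 2 and 1 without 6-month replicate 1.

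The remaining large falls were of less studied genes. Cpz, a carboxypeptidase with a Wnt-binding domain, measured 7.85, 8.32 and 8.11 at 3 months and 4.72, 4.44 and 5.27 at 6 months, a fall of 3.29 ± 0.55 (SE, limma adjusted p = 0.00439). Capn6, a calpain without protease activity, fell from 7.0, 7.01 and 6.17 to 3.18, 3.72 and 4.44, by 2.95 ± 0.38 (SE, adjusted p = 0.000958). Ranbp3l, a nuclear export factor, measured 6.09, 6.89 and 6.93 against 3.47, 4.33 and 4.34, and fell by 2.59 ± 0.33 (SE, adjusted p = 0.000958). These genes show little spread within an age beside the gap between ages, and all 3, with Cgref1 (-2.94) and Aldh1l2 (-2.75), a mitochondrial folate enzyme, were called in all 6 fits without 1 array. Mamdc2 (-2.71) and Prss35 (-2.72) complete the 15 largest falls (adjusted p = 0.0104 and 0.00978).

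Signalling genes of growth fell in small numbers. All 16 hedgehog and PTHrP pathway genes lay below 0, with a median of -0.58, and 4 were called: the receptor gene Pth1r at -1.59, the co-receptor gene Boc at -1.49 and the transcription factors Gli2 at -1.25 and Gli3 at -1.17 (limma adjusted p = 0.0151, 0.0392, 0.00978 and 0.0215). Pth1r, which carries the parathyroid hormone signal, measured 8.56, 8.78 and 8.29 at 3 months and 6.26, 7.25 and 7.33 at 6 months, with no overlap. Of 41 Wnt genes, 7 were called lower and none higher (median -0.56), among them the secreted inhibitor Wif1 at -1.97, the activator Rspo3 at -1.79, and the inhibitors Nkd2 at -1.77 and Apcdd1 at -1.40 (adjusted p = 0.0171, 0.0192, 0.00827 and 0.0266). Wif1 measured 9.68, 9.86 and 10.31 against 7.27, 8.01 and 8.68. Both inhibitors and an activator of the pathway were among the falls.

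Of 38 BMP and TGF-beta genes, 6 were called lower (median -0.48), including the pathway inhibitors Smad6 at -1.58 and Bambi at -1.43, the target Id3 at -1.14 and the secreted Fstl1 at -1.09 (limma adjusted p = 0.0029, 0.0102, 0.0359 and 0.0129). Among 21 FGF genes Fgfr3, the receptor that restrains chondrocyte growth, was the 1 called, at -1.61 (adjusted p = 0.0169). In the growth hormone and IGF list of 21, the median was -0.16 and 2 genes were called, Pappa, a protease that frees IGF from its binding proteins, at -1.40 and Stc1 at -1.34 (adjusted p = 0.00887 and 0.0488). Pappa measured 6.90, 7.33 and 7.67 at 3 months and 5.63, 5.93 and 6.16 at 6 months. Of 19 imprinted growth genes 4 were called lower (median -0.31), namely Plagl1 at -1.52, Mest at -1.41, Grb10 at -1.15 and Ndn at -1.10 (adjusted p = 0.0124, 0.00265, 0.00795 and 0.0266).

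Without 3-month replicate 2 the hedgehog, Wnt, BMP and TGF-beta, growth hormone and IGF, and imprinted lists held 0, 1, 1, 0 and 1 called genes. Without 6-month replicate 1 they held 0, 0, 1, 0 and 1. Without 3-month replicate 3 the hedgehog, Wnt, and BMP and TGF-beta lists held 2 each, and the growth hormone and IGF list held 1, as it did without 3-month replicate 1 or 6-month replicate 2. The Wnt list held 4 without 6-month replicate 2 and 3 without 6-month replicate 3. The FGF list held 0 without 3-month replicate 2, 6-month replicate 1 or 6-month replicate 2, and 0 with muscle RNA as a covariate. Smad6 and Mest were called in all 6 fits.

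Osteoclast genes mostly did not pass. Of 18, 15 lay below 0 with a median of -0.33, and 2 were called. Ctsk, the cathepsin that digests bone collagen, measured 9.25, 10.72 and 9.77 at 3 months and 8.06, 8.72 and 8.34 at 6 months, a fall of 1.54 ± 0.41 (SE, limma adjusted p = 0.0466), and was called in 1 of the 6 fits. Calcr, the calcitonin receptor gene, fell by 1.12 ± 0.29 (SE, adjusted p = 0.0427) and was called in 0 of the 6. Of 10 genes that regulate osteoclasts 9 lay below 0, with a median of -0.70 and 8 with an unadjusted p under 0.05 (beside 3517 of all 22180 genes), and Wnt4, at -1.22 (adjusted p = 0.0205), was the 1 called. Wnt4 was not called without 3-month replicate 2, 6-month replicate 1 or 6-month replicate 2, nor with muscle RNA as a covariate (adjusted p = 0.0741).

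**Figure D4:**
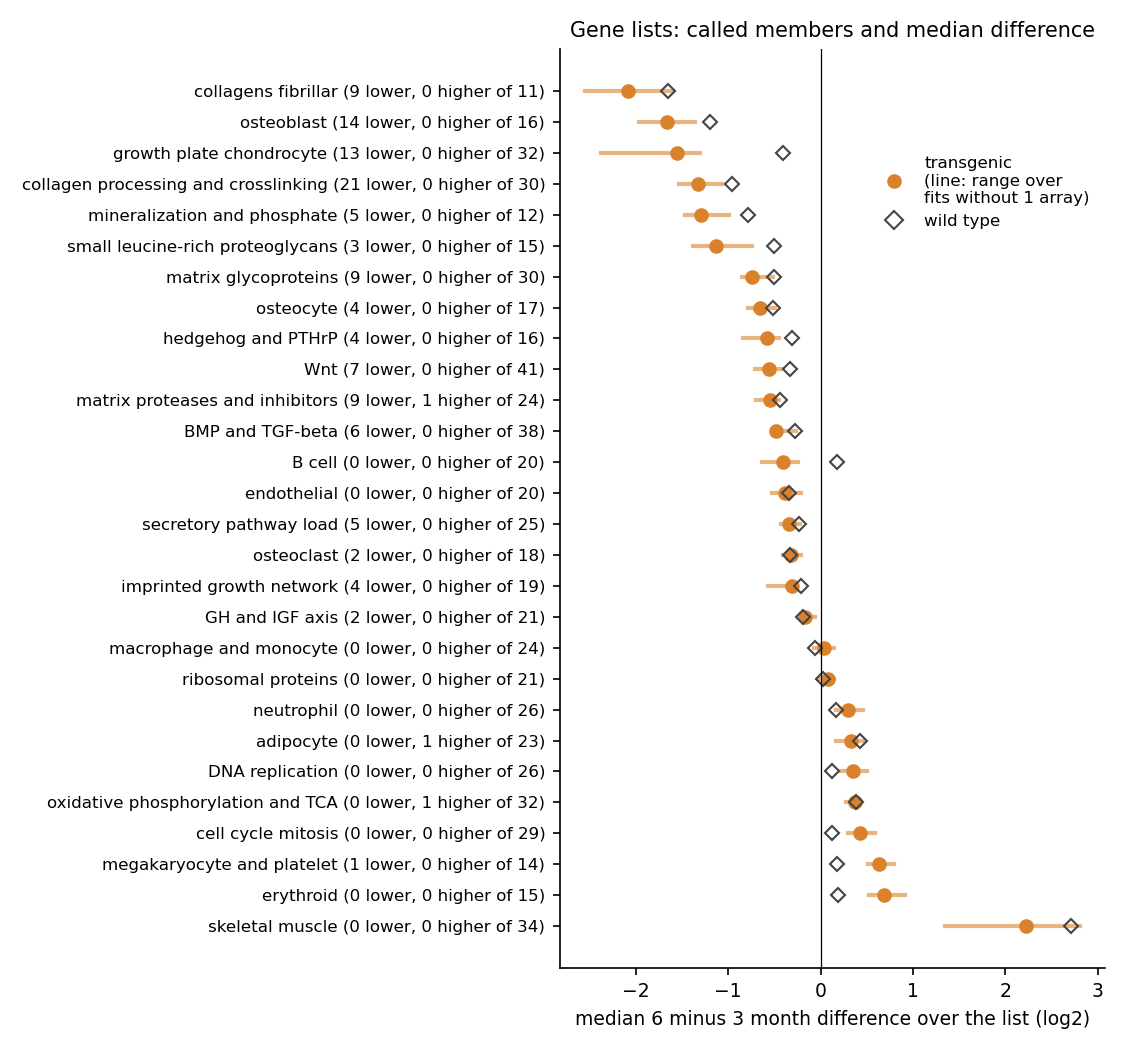
Median difference between 6 and 3 months (log2) of gene lists in transgenic bone (orange points), with the range over fits without 1 transgenic array (orange lines), and in wild-type bone (open diamonds). Labels give the members called lower and higher in transgenic bone and the number measured. Fibrillar collagens lie lowest at -2.09 and skeletal muscle highest at 2.22, where no member was called.

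Fewer genes rose, and the largest called rise was that of Gpnmb. Gpnmb, a glycoprotein of osteoclasts and lipid-laden macrophages, measured 4.78, 5.36 and 5.02 at 3 months and 8.83, 7.30 and 8.22 at 6 months, a rise of 3.06 ± 0.42 (SE, limma adjusted p = 0.00139) and 8.36-fold. H2-M2, a non-classical MHC class I gene, measured 4.96, 5.20 and 4.73 against 9.0, 7.37 and 7.13, and rose by 2.87 ± 0.52 (SE, adjusted p = 0.00672). Mmp12 measured 3.03, 3.26 and 3.14 against 5.38, 4.11 and 4.85, and rose by 1.64 ± 0.39 (SE, adjusted p = 0.0261). In all 3 genes the 3-month arrays lay close together and the 6-month arrays lay above them. The 3-month values of Mmp12 were below the array medians of 3.55 to 3.64 and are not shown to be above background. Mmp12 was not called without 3-month replicate 2 or without 6-month replicate 1. Of the 15 largest rises, 2 were called in all 6 fits without 1 array.

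Lilra5, a leukocyte immunoglobulin-like receptor, rose by 1.61, Gdf3, a TGF-beta family ligand, by 1.41, and Ighg3, an immunoglobulin heavy chain gene of plasma cells, by 2.73 (limma adjusted p = 0.0059, 0.0347 and 0.0492). Ighg3 measured 5.45, 6.47 and 6.62 at 3 months and 9.80, 8.90 and 8.02 at 6 months, and was called in 0 of the 6 fits without 1 array. Il1b, the interleukin 1 beta gene, rose by 1.01 ± 0.23 (SE, adjusted p = 0.0214) and Ptgs2, the inducible cyclooxygenase gene, fell by 1.84 ± 0.36 (SE, adjusted p = 0.00929), within an inflammation list of 24 whose median was 0.08. Neither was called without 3-month replicate 2 or 6-month replicate 1, nor Il1b without 3-month replicate 3. None of 24 macrophage and monocyte markers was called by limma, 2 had an unadjusted p under 0.05 (beside 3517 of all 22180 genes), and their median was 0.04. Their list mean was 6.82, 6.92 and 6.82 at 3 months and 7.06, 6.67 and 6.93 at 6 months.

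Muscle RNA moved with the other rises. All 34 skeletal muscle genes lay above 0 with a median of 2.22, and 29 had every 6-month array above every 3-month array, yet limma called none (29 with an unadjusted p under 0.05, beside 3517 of all 22180 genes, lowest adjusted p = 0.124). Des, the intermediate filament gene of muscle, measured 5.38, 7.38 and 8.29 at 3 months and 8.68, 10.26 and 8.94 at 6 months. Without 1 array the list median ran from 1.35 to 2.81, and between the 2 arrays of the rarer prefix it was 0.62. Of the 57 genes that rose, 33.3% had a within-group correlation above 0.5 with the muscle list mean over the 24 arrays, compared with 5.8% over all genes and 2.0% among the falls.

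Of the 15 largest rises, 9 had such a correlation: Asb12, Ucp3, Klhl40, Vtn, Hspb1, Mrln, Cacng6, Klf15 and Slc2a4. Asb12, an ankyrin repeat and SOCS box gene, measured 1.57, 2.65 and 3.92 at 3 months and 4.83, 6.80 and 5.07 at 6 months, a rise of 2.86 ± 0.63 (SE, limma adjusted p = 0.0171), while a dimmer row of it differed by -0.15. Its 3-month values of 1.57 and 2.65 lay below the array medians of 3.55 to 3.64 and are not shown to be above background. Klhl40, a muscle sarcomere protein, and Ucp3, a mitochondrial carrier of muscle, each rose by 2.23 (adjusted p = 0.0307 and 0.0458), Vtn, the vitronectin gene, by 1.98, and Hspb1, a small heat shock protein, by 1.95 with a dimmer row at 0.27 (adjusted p = 0.0128 and 0.0185). Mrln, a regulator of the muscle calcium pump, rose by 1.88 and Cacng6, a muscle calcium channel subunit, by 1.75 (adjusted p = 0.0374 and 0.0407). Klf15, a transcription factor that glucocorticoids induce, rose by 1.55 (adjusted p = 0.00769), and Slc2a4, the insulin-responsive glucose transporter of muscle and fat, by 1.36 (adjusted p = 0.0465). The muscle values stand beside these rises, and their part in the result was not tested.

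With muscle RNA (the list mean) as a covariate, 346 genes were called lower and 44 higher, 1.56% and 0.198% of those tested. Of the 590 falls 311 stayed called, and of the 57 rises 12, while all 647 kept their sign. Among the 15 largest rises the 4 that stayed called were Gpnmb, H2-M2, Lilra5 and Mmp12 (limma adjusted p = 0.00277, 0.0142, 0.0256 and 0.0281). The covariate left 5 osteoblast genes called where 14 were called without it, 4 growth plate genes where there were 13, 11 collagen processing genes where there were 21 and 6 fibrillar collagens where there were 9. The list medians with it were -1.78, -1.61, -1.36 and -2.27, beside -1.67, -1.56, -1.33 and -2.09 without it. Leaving out 3-month replicate 1 and 6-month replicate 2, the arrays lowest and highest in muscle RNA, gave 404 genes lower and 73 higher.

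Energy metabolism genes mostly lay above 0, with few calls. All 32 oxidative phosphorylation and citric acid cycle genes were above 0 with a median of 0.37, and Ndufb5, a complex I subunit, was the 1 called, at 0.61 ± 0.13 (SE, limma adjusted p = 0.0142). Of 19 fatty acid oxidation genes, 16 lay above 0 (median 0.25), and Ucp3 and Acadvl, the very long-chain acyl-CoA dehydrogenase, were called, the latter at 0.62 (adjusted p = 0.0439). Ndufb5 and Acadvl had within-group correlations of 0.69 and 0.66 with the muscle list mean. With that mean as a covariate neither list held a call, their medians were 0.16 and 0.10, and Ndufb5 and Acadvl differed by 0.48 and 0.41 (adjusted p = 0.107 and 0.244). Ndufb5 was called in 2 of the 6 fits without 1 array, without 3-month replicate 2 or 6-month replicate 3, Acadvl in 1, without 6-month replicate 1, and Ucp3 in 0. Of 22 glycolysis genes 19 lay above 0 and none was called by limma (12 with an unadjusted p under 0.05, beside 3517 of all 22180 genes), with a median of 0.37 and Hk2, hexokinase 2, at 0.79 (adjusted p = 0.0744).

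Genes of marrow lineages gave few calls, although the erythroid and megakaryocyte medians lay about as far above 0 as the osteocyte median lay below it. All 15 erythroid genes lay above 0 with a median of 0.69 and none was called by limma, although 8 had an unadjusted p under 0.05, beside 3517 of all 22180 genes. Their mean was 8.94, 8.28 and 8.11 at 3 months and 9.43, 8.83 and 9.11 at 6 months, so the ages overlapped. Gata1, the erythroid transcription factor, differed by 0.69 (adjusted p = 0.186) and Car1, a red cell carbonic anhydrase, by 0.73 (adjusted p = 0.152). With the erythroid list mean as a covariate 61 genes were called lower and 4 higher, 0.275% and 0.018% of those tested and all of them among the 590 and the 57. Of the 146 named genes, 82 lost their call under this covariate and 64 stayed on the same side of the threshold. Acan, Alpl and Bmp1 lost it (limma adjusted p = 0.144, 0.142 and 0.103), while Capn6 and Aldh1l2 kept it (adjusted p = 0.0115 and 0.0322). The erythroid values stand beside the falls of bone genes, and their part in the result was not tested.

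All 29 mitosis genes and all 26 DNA replication genes lay above 0, with medians of 0.42 and 0.35, and limma called none of them (13 and 6 with an unadjusted p under 0.05, beside 3517 of all 22180 genes). Cenpf, a kinetochore protein, differed by 0.56 (adjusted p = 0.159) and Tyms, thymidylate synthase, by 0.69 (adjusted p = 0.106). Their array means overlapped between the ages, at 7.96, 7.64 and 7.45 against 8.40, 7.86 and 8.03 for mitosis. Neutrophil genes had a median of 0.30, B cell genes -0.40 and megakaryocyte genes 0.63, where Thbs1, thrombospondin 1 of platelets and many other cells, was the 1 call, lower by 0.77 (limma adjusted p = 0.00796) and not called without 3-month replicate 2. Neither the 26 neutrophil nor the 20 B cell genes held a call (7 and 3 with an unadjusted p under 0.05), and Fcnb, a neutrophil ficolin, measured 5.59, 5.03 and 5.67 against 8.64, 5.81 and 8.19 (adjusted p = 0.172).

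Few genes tied to glucocorticoids were called. Hsd11b2, the gene the transgene carries, measured 5.52, 5.02 and 5.21 at 3 months and 3.92, 4.67 and 5.01 at 6 months. The difference of -0.71 ± 0.22 (SE) did not pass (limma adjusted p = 0.102), and at each age the transgenic arrays lay above the wild-type arrays, which measured 3.98, 3.73 and 3.59 at 3 months and 3.65, 3.68 and 3.6 at 6 months. These wild-type values lay close to the array medians of 3.55 to 3.64. None of 11 glucocorticoid handling genes was called (4 with an unadjusted p under 0.05, beside 3517 of all 22180 genes), with a median of 0.23. Of 26 response genes Tat, the liver tyrosine aminotransferase, was called at 1.55 ± 0.40 (SE, adjusted p = 0.0428), but its arrays of 6 months stood at 4.14, 4.16 and 1.94 and overlapped those of 3 months at 2.21, 1.90 and 1.5. Its 3-month values and its 6-month value of 1.94 lay below the array medians of 3.55 to 3.64 and are not shown to be above background. Tat was called in 1 of the 6 fits without 1 array, that without 6-month replicate 3.

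Fat, vessel and stromal genes gave few calls. Among 23 adipocyte genes, with a median of 0.33, Slc2a4 was the 1 called, a call absent from all 6 fits without 1 array and from the fit with the muscle covariate. None of 20 endothelial genes was called by limma (8 with an unadjusted p under 0.05, beside 3517 of all 22180 genes), with a median of -0.39 and Pecam1, a junction protein of endothelium, at -0.42 (adjusted p = 0.103). Of 18 marrow stromal genes, Pdgfra, a receptor of mesenchymal progenitors, and Snai2 were called lower, at -1.31 and -1.11 (adjusted p = 0.0176 and 0.0439), and the list median was -0.04. The list held 0 calls without 3-month replicate 2 or 6-month replicate 1, and 1 without 3-month replicate 1 or 3. Ribosomal protein genes and reference genes had medians of 0.08 and 0.02 with no call. In all, 27 of the 56 lists held no called gene.

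In wild-type bone the same step went the same way, and the transgenic differences themselves use none of its arrays. Limma called 73 genes lower and 20 higher there, 0.329% and 0.0902% of those tested. These counts moved with the processing, to 214 lower and 91 higher with median centring, 26 in all without the prefix term and 7 with the muscle covariate. The prefix is not balanced between the ages in wild type, where the rarer one is on 1 array of 3 months and 2 of 6 months. Of the 590 transgenic falls, 583 (98.8%) lay below 0 in wild type, where 51.6% of all genes did, with a median of -0.83 and 69 called; since transgenic values chose these genes, their larger transgenic median is no sign of a difference. Of the 57 rises, 55 lay above 0, with a median of 0.64 and 5 called. The 74 genes called in both make up 79.6% of the 93 wild-type calls and 11.4% of the transgenic calls, shares that rest on this count of 93. Both comparisons take each gene's spread from the same fit to all 24 arrays, so this overlap is not independent agreement. The wild-type count was 3, 4, 8, 28 and 43 without 6-month replicate 2, 6-month replicate 3, 3-month replicate 1, 3-month replicate 2 and 6-month replicate 1 of wild type.

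The difference between the steps was tested directly, and no gene passed. The interaction called 0 genes by limma (0% of those tested; 747 with an unadjusted p under 0.05; lowest adjusted p = 1), so no gene was called particular to transgenic bone. Of the 590 falls 65 had an unadjusted interaction p under 0.05, and of the 57 rises 13, beside 747 of all 22180 genes. The falls and rises were chosen on transgenic arrays that also enter the interaction. A raised share was therefore built in and is no sign of a difference between genotypes. Gpnmb rose in both genotypes, by 3.06 in transgenic and by 3.77 in wild-type bone, and Cthrc1 fell by 2.49 and 2.09. The cartilage list differed more in its medians, -1.56 in transgenic and -0.41 in wild-type bone, but Col10a1 gave -4.64 and -3.32, with an interaction of -1.32 (unadjusted p = 0.304). Gal3st2, a sulfotransferase, and Cdh12, a cadherin, had the lowest interaction p in the direction of a higher transgenic step, at 1.59 and 1.24, while Zfp108 and Avpr1a had the lowest in the other direction, at -2.97 and -0.99 (adjusted p = 1 for each).

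Levels at the later ages of the transgenic line were set beside those of 6 months. The median level of the 590 falling genes, 6.71 over the 3-month group means and 5.51 at 6 months, was 5.56 at 12 and 5.62 at 18 months. In wild type the same genes stood at 6.54, 5.81, 5.36 and 5.55. The 57 rising genes stood at 4.10, 5.61, 5.21 and 5.21 in transgenic and at 4.14, 5.42, 4.88 and 5.32 in wild-type bone. Col10a1 averaged 3.19 and 4.98 at 12 and 18 months, Gpnmb 6.90 and 7.64, and Mmp12 3.4 and 3.63 in transgenic bone, the last closer to its 3-month mean of 3.14 than to its 6-month mean of 4.78. No test was made between these ages. A code prefix absent at 3 and 6 months is on some arrays of 12 and 18 months, and on every wild-type array of 12 months. These levels carry no prefix term, so age and prefix cannot be fully told apart in them.

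**Figure D5:**
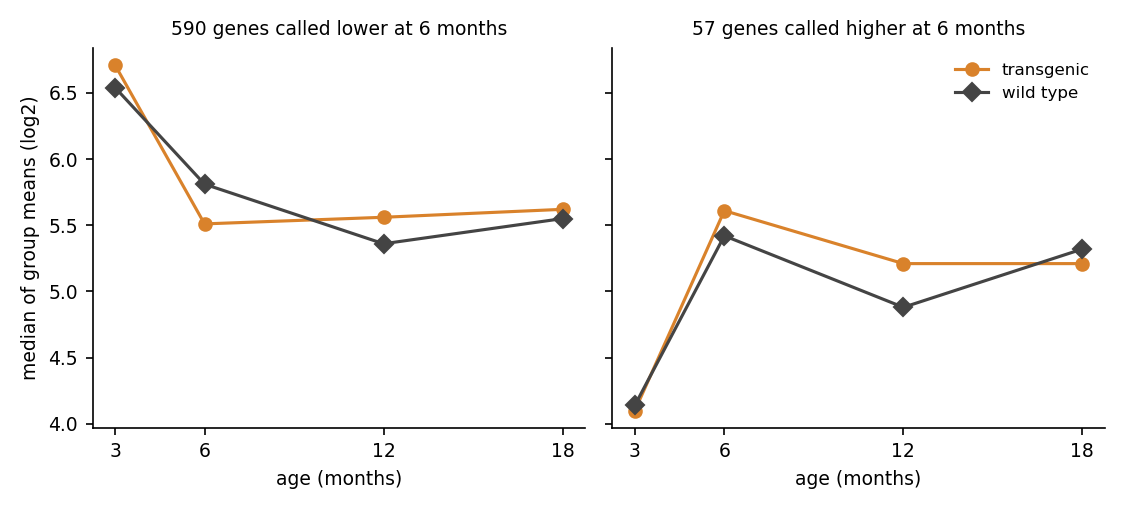
Median over genes of the group mean level (log2) against age in months, for the 590 genes that fell (left) and the 57 that rose (right) between 3 and 6 months in transgenic bone, with transgenic bone in orange and wild-type bone in dark grey, 3 arrays per point. Because the genes were picked on the transgenic 3- and 6-month arrays, the orange step between those ages is a description. The levels of 12 and 18 months lie nearer to those of 6 than of 3 months in both genotypes. Some arrays of 12 and 18 months carry a code prefix absent at the younger ages, so age and prefix cannot be fully told apart.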

How the data were processed

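Bone RNA of 24 arrays was compared, in 8 groups of 3 by the genotype and age in the sample titles. The deposited values, 1 column per array, are log2 signals between 0.09 and 13.7; that range was the basis for taking them as log2. The submitters' processing notes name MAS5, without a version, as the only tool behind the deposited log2 values, and neither background correction nor scaling is described in the labels. Array medians lay between 3.55 and 3.64. There is no detection call, and the number of arrays limits the precision.

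Of 41034 rows, 23521 carried 1 gene symbol, 1814 several and 15699 none. Through Entrez identifiers 23328 of them matched RefSeq (GRCm38.p6), with 0 symbols changed. Of several rows of a gene (1082 genes) the brightest on average was used, which left 22180 genes, and other rows of a named gene that disagree are stated beside it.

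The model was fitted by lmFit and eBayes of limma 3.58.1 (R 4.3.3) to all 24 arrays, with a term per group and a term for the 3 code prefixes of the source names, leaving 14 residual degrees of freedom. Two-sided p-values were adjusted by Benjamini-Hochberg over 22180 genes, and calls required an adjusted value under 0.05. The fit was tested on simulated data. Errors beside a difference are standard errors of this fit. The within-group correlation with muscle was taken over residuals of the 24 arrays.

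The comparison, the 56 gene lists, the naming rule and the alternatives were chosen with earlier results of these data known. The rule named the 15 called genes with the largest difference in each direction among those whose ages did not overlap, up to 4 called members of each list or the 2 with the lowest p where none was called, Hsd11b2, and the 2 genes with the lowest interaction p in each direction. Predicted genes, small RNA genes, chemosensory receptor genes and single variable segments were counted, 16 among the falls and 6 among the rises, and not named. Lists are described by counts and medians, with no test. Replicate numbers are shared between the ages, but no protocol states a pairing, so the numbers were not taken as pairs. Same-numbered arrays deviated together at correlations of 0.34, 0.05 and 0.17, and differently numbered arrays at -0.30 to 0.15. These values do not settle whether the numbers mark pairs, and counts with a replicate block are given below. Alternatives covered the prefix term, the arrays in the fit, a replicate block, normalization, low-signal filters, the row per gene, the variance model, the threshold, and muscle RNA as a covariate. Those on marrow RNA, on the arrays extreme in muscle RNA and on single wild-type arrays were added after seeing the data.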

Additional observations from a re-analysis of the deposited data

Results flagged for a closer look

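Zfp108, a zinc finger gene, had fitted differences of opposite sign in the 2 genotypes. In transgenic bone it measured 3.56, 4.46 and 4.12 at 3 months and 1.99, 2.05 and 2.65 at 6 months, a fall of 1.82 ± 0.44 (SE, limma adjusted p = 0.0303). In wild-type bone it measured 2.12, 2.27 and 2.30 at 3 months and 3.83, 2.84 and 3.93 at 6 months, a difference of 1.15 that did not pass (adjusted p = 0.301). Every transgenic value of 6 months and every wild-type value of 3 months lay below the array medians of 3.55 to 3.64. Without a detection call these values are not shown to be above background, so the size of both differences is uncertain. The difference between the steps was -2.965, with an unadjusted p of 0.000191 and an adjusted p of 1 over all genes, so the test of the difference did not pass.

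Rows with several gene symbols or none lie outside the comparison. Tested apart, 60 of 17513 such rows were called between 6 and 3 months in transgenic bone, 46 lower and 14 higher, which is 0.343%. Their lowest limma adjusted p was 0.00114, and 1560 had an unadjusted p under 0.05. None of them is named.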

How the results depend on the processing

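No called difference of the 146 named genes changed sign under any alternative run. Many alternatives cannot move the transgenic difference, and most others reuse the arrays that chose the genes. This agreement of sign was therefore largely fixed in advance and is only a description. Of 4494 values of named genes under an alternative, 3635 stayed on the same side of the threshold, 817 lost and 42 gained a call. The transgenic count of 647 was 243 (84 higher, 159 lower) within the commonest code prefix, 85 with only the 6 transgenic arrays and a prefix term, 31 with these arrays and no prefix term, 390 with the muscle covariate, 65 with the erythroid covariate and 997 at an adjusted p under 0.10. Leaving out single transgenic arrays gave 102 to 593, and single wild-type arrays 581 to 676. The other settings gave 457 to 771. A replicate block gave 551 calls over all 24 arrays and 349 with only the 6 transgenic arrays. The wild-type count of 93 was 26 with no prefix term, 30 with a replicate block, 175 with quantile normalization, 305 with median centring and 7 with the muscle covariate, and 3 to 88 without single wild-type arrays. The interaction had 0 calls in every setting run. The cause of these changes was not tested. With 3 arrays per age, a median standard error of 0.19 and no detection call, small changes and genes near background could go unseen.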

Other observations

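Stress, hormone and immune lists outside the groups above held few calls. Among 17 heat shock and unfolded protein genes Hspb1 was the 1 called, and the list median was 0.23. None of 19 interferon genes was called by limma (1 with an unadjusted p under 0.05, beside 3517 of all 22180 genes), with a median of -0.31 and Mx2, an antiviral GTPase, at -0.96 (adjusted p = 0.225). Nor was any of 9 MHC class II genes (0 with an unadjusted p under 0.05), with a median of 0.02. Of 12 plasma cell genes, Ighg3 was called higher and Fkbp11, a secretory pathway prolyl isomerase, lower at -1.31 (adjusted p = 0.0135), with a median of 0.02. The T and NK cell, mast and basophil, and stem and progenitor lists held no call by limma (4, 2 and 1 genes with an unadjusted p under 0.05), with medians of 0.15, 0.14 and -0.02.

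Nuclear receptor genes had a median of -0.05, with no call among 22 by limma (2 with an unadjusted p under 0.05, beside 3517 of all 22180 genes). Vdr, the vitamin D receptor gene, measured 7.19, 7.48 and 7.52 at 3 months and 5.82, 5.93 and 7.38 at 6 months, a difference of -1.02 ± 0.32 (SE, limma adjusted p = 0.102) with ages that overlapped only at 6-month replicate 3. Cdkn1a, the p21 cell cycle inhibitor gene, measured 8.56, 9.05 and 9.06 against 7.16, 7.83 and 8.54, a difference of -1.05 (adjusted p = 0.0532), while the list of 17 cyclin and CDK inhibitor genes had a median of 0.13 and no call by limma (7 with an unadjusted p under 0.05). Clock genes of the circadian list had a median of 0.09 and immediate early genes -0.01, again without a call (3 of 17 and 3 of 21 with an unadjusted p under 0.05). The nerve list had a median of 0.00 and the vascular smooth muscle list -0.27, and neither held a call by limma (2 and 3 genes with an unadjusted p under 0.05). In the tendon and periosteum list of 12, with a median of -0.45, Postn and Ctsk were the 2 called. Without 3-month replicate 2, or without 6-month replicate 1, the heat shock, plasma cell and tendon lists held 0 called genes. The heat shock list also held 0 without 3-month replicate 1 or 6-month replicate 2, and the tendon list 0 without 6-month replicate 2. The plasma cell list held 1 without any one of the other 4 arrays, and the tendon list 1 without replicate 3 of either age.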
